A study of Mus musculus with 4 samples.

Results

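*Meioc*, *Ythdc2* and *Rbm46* were followed as 3 transcripts among the 32285 genes of the count tables, chosen by gene symbol as the genes for a protein complex. Raw unique molecular identifiers (UMIs, tags that mark single captured mRNA molecules) were read in testis cells of 4 mouse pups at postnatal day 15, 2 wild-type and 2 *Meioc*-null, each giving 1 testis to a 10x Genomics Chromium 3′ library. All pups were on a C57BL/6N background, and, per the study's methods, mice of both genotypes were also heterozygous for *Hspa2* tm1Dix and homozygous for a tdTomato reporter at *ROSA26* whose stop cassette was intact. The null allele was *Meioc* tm1.1Dpc. Each wild-type pup was a littermate of the *Meioc*-null pup with the same replicate number, and the libraries of a pair were prepared and sequenced in 1 batch. The mutation is present in every cell of the null animals, so it is not limited to germ cells or to a stage.

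On the GRCm38 assembly, with GENCODE vM21 gene models, *Meioc* (ENSMUSG00000051455) lay on the plus strand of chr11:102663716-102682237 and had up to 8 exons in a protein-coding transcript. *Ythdc2* (ENSMUSG00000034653) lay on the plus strand of chr18:44827746-44889724, with 30 exons. *Rbm46* (ENSMUSG00000033882) lay on the minus strand of chr3:82837228-82876483, with up to 5 exons. No annotated gene on either strand overlapped any of the 3. The libraries tag the 3′ ends of transcripts, which can lie outside the deleted part of *Meioc*, so the *Meioc* UMIs of the null libraries do not check the genotype labels and say nothing about MEIOC protein.

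MEIOC, YTHDC2 and RBM46 act together on mRNA in germ cells that are leaving mitosis for meiosis. YTHDC2 is an RNA helicase with a YTH domain, MEIOC is its binding partner and has a coiled-coil domain, and RBM46 is an RNA-binding protein with RNA recognition motifs. In the testis the complex lowers the abundance of mRNAs that it binds, and male mice that lack any of the 3 proteins are sterile because their spermatocytes fail early in meiosis.

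The 250 bases before the RefSeq start of *Meioc* and of *Rbm46* are shown, with the build GRCm38.p6, and the *Ythdc2* window was left out. Capitals mark matches to 4 motifs searched on both strands, GCGGGAA of the E2F factors, CACGTG of the MGA-MAX E-box, CCTCAG of STRA8 and GGTGTGA of the T-box factors.
Meioc, chr11:102665335-102665584, plus strand: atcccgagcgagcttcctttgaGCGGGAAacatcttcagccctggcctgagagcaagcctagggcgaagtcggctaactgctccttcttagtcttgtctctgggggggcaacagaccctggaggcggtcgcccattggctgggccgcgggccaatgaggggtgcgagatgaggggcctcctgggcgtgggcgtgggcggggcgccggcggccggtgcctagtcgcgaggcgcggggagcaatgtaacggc
Rbm46, chr3:82876484-82876733, minus strand: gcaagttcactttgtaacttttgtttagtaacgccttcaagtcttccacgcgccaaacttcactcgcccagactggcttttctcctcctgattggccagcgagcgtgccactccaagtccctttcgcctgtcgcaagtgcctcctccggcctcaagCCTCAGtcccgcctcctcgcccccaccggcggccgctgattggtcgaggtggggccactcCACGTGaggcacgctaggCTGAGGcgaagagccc

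The *Meioc* window held GCGGGAA once, from 228 to 222 bases before the start, and none of the other motifs. This window lies in an intron of 1 longer transcript model of the gene and holds no annotated exon. That heptamer, read on either strand, was in 3.82% of the 32851 windows of this length in RefSeq. The *Rbm46* window held CACGTG from 34 to 29 bases before the start, a motif found in 6.02% of windows. It also held CCTCAG from 94 to 89 bases and, on the other strand, from 16 to 11 bases before the start, and 22.3% of windows held that hexamer. GGTGTGA was in neither window and in 3.33% of all windows. None of the matches overlapped another. A match is a run of letters, and binding of a factor there was not measured.

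After the study's limits of more than 1000 detected genes and less than 10% mitochondrial UMIs, and removal of the highest doublet scores, the wild-type libraries kept 5644 and 7505 cells and the *Meioc*-null libraries 6554 and 6522, with library medians of 11698.5 to 14446 UMIs. Pairs of libraries shared 7 to 16 barcodes, at most 0.283% of the cells of a library. Germ cells fell into 12 clusters in a single unbranched order, cut from wild-type cells without the 3 genes among the variable genes. Cells of all libraries took the cluster of their nearest wild-type cells. The study found a cluster made up mainly of *Meioc*-null spermatocytes, most of them in G2/M phase. Such cells could get no cluster of their own here, so the null cells of a cluster need not match its wild-type cells in stage. Cluster 1 was undifferentiated spermatogonia-like, clusters 2 to 7 were differentiating spermatogonia-like (cluster 7 led by *Rec8* and *Ctcfl*), cluster 8 was preleptotene-like (led by *Stra8* and *Hist1h2aa*), clusters 9 to 11 were early spermatocyte-like and cluster 12 was pachytene-like (led by *Ldhc*). By this placing *Meioc*-null libraries had 0 cells in clusters 11 and 12, which held 175 and 328 and then 202 and 207 wild-type cells, so these clusters describe wild-type cells alone. The study's own clustering designated some null cells as pachytene. Levels are given as CPM, the UMIs of a transcript scaled by all UMIs of the cluster in that library. They compare the same transcript between clusters or libraries, not 1 transcript with another. Clusters were cut from the same cells, so differences between clusters are a description without a test.

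*Meioc* transcripts were low in the first 3 germ-cell clusters, then stood higher in each cluster up to the preleptotene-like one. Wild-type replicates 1 and 2 had 17.4 and 13.9 CPM in cluster 1, then 20.1 and 12.2 CPM in the next cluster and 24.2 and 16.04 CPM in the third. The step came at cluster 4, at 80.7 and 80.3 CPM, which was 3.34-fold and 5.01-fold the level of cluster 3 in the same library. Cluster 5, led by the mitotic genes *Plk1* and *Ccnb1*, had 196 and 198 CPM. Cluster 6 had 397 and 390 CPM and cluster 7 had 407 and 424. From cluster 4 to cluster 7 the 2 libraries were close to each other, whereas in clusters 2 and 3 replicate 1 was higher. The level of cluster 5 was 2.42-fold and 2.46-fold that of cluster 4, and the level of cluster 6 was 2.03-fold and 1.97-fold that of cluster 5. *Meioc* was highest in cluster 8, at 628 CPM (95% exact Poisson interval 612 to 644) and 683 CPM (665 to 700). This was 36.2-fold and 49.1-fold the level of cluster 1, which overlapped that of Sertoli cells and was not told apart from background. Beyond cluster 8 the level was lower in each further cluster of the same library, with 604 and 557 CPM in cluster 9. Cluster 10 had 476 and 487 CPM, cluster 11 had 423 and 483 CPM and cluster 12 had 357 and 458 CPM. Thus the pachytene-like cells still held a level of the kind seen in clusters 6 and 7. Over the 2 libraries the order was cluster 8 (655 ± 38.7, SD, n = 2), cluster 9 (580 ± 33.2) and cluster 10 (481 ± 8.02), with no overlap between these neighbours. Clusters 10, 11, 7, 12 and 6 followed each other with overlapping ranges, as did clusters 3, 2 and 1 at the bottom.

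*Ythdc2* levels stood higher in small steps from cluster 1 to cluster 6 and were highest in the early spermatocyte-like cluster 9. Wild-type replicates 1 and 2 had 27.8 and 29.1 CPM in cluster 1. Cluster 2 had 41.4 and 37.3 CPM, cluster 3 had 60.9 and 56.3 CPM and cluster 4 had 96.7 and 110.3 CPM. The level of cluster 4 was thus 3.48-fold and 3.79-fold that of cluster 1, with no single step as large as that of *Meioc*. The level of cluster 1 was itself little above the 22.9 to 24.2 CPM of Sertoli cells, so these folds have a near-background base. Clusters 5 and 6 had 129 and 143 and then 167 and 180 CPM, followed by a lower 151 and 145 CPM in cluster 7, in which the 2 libraries did not overlap with those of cluster 6. Cluster 8 had 210 and 234 CPM. The highest level, in cluster 9, was 368 and 401 CPM, 1.75-fold and 1.72-fold that of cluster 8. Beyond it the level was lower at every step, down to 283 and 308 CPM in cluster 10 and 190.2 and 206 CPM in cluster 11. The pachytene-like cells had 126 and 163 CPM. Across the order, ranges of the 2 libraries overlapped only between clusters 7 and 12 and between clusters 12 and 5.

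*Rbm46* transcripts were in every germ-cell cluster, in a range that spanned less than 5-fold. The lowest level was that of cluster 1, at 107 and 115 CPM in wild-type replicates 1 and 2. Cluster 2 had 246 and 268 CPM, 2.30-fold and 2.32-fold as much. Clusters 3 to 9 then stayed between 225 and 306 CPM in both libraries, the part of the order in which *Meioc* and *Ythdc2* went from low to highest. Cluster 10 had 347 and 346 CPM and cluster 11 had 445 and 418 CPM, the highest level of this transcript. In cluster 12 the libraries were apart, at 318 and 390 CPM, and their range overlapped with that of cluster 10. The order was cluster 11 (431 ± 18.8, SD, n = 2), then 12 (354 ± 50.9) and 10 (346 ± 0.626), with cluster 1 (111 ± 5.89) last.

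**Figure D1:**
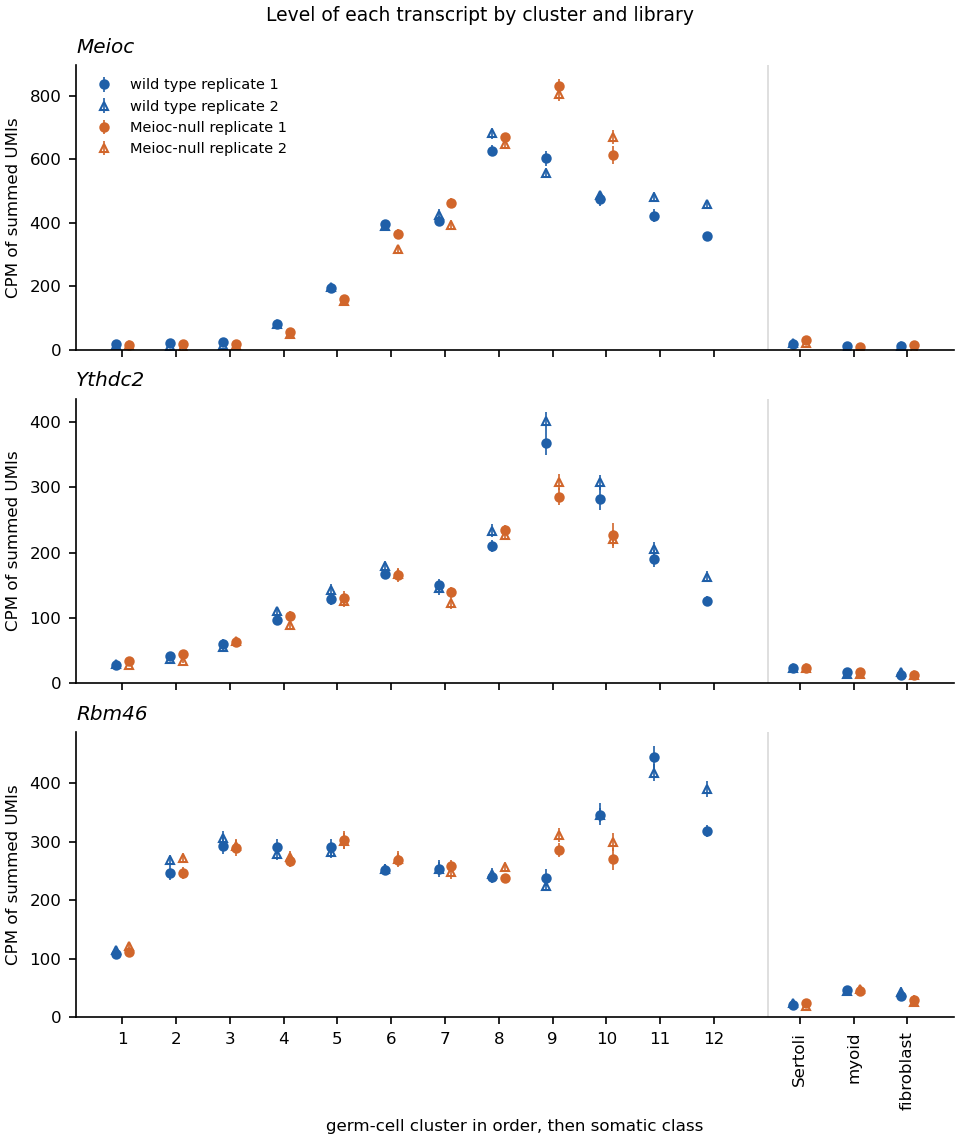
Level of *Meioc*, *Ythdc2* and *Rbm46* in CPM of summed UMIs (vertical axis, from 0) in each germ-cell cluster and in Sertoli, peritubular myoid and interstitial fibroblast cells (horizontal axis). Each symbol is 1 library with its 95% exact Poisson interval; *Meioc* is highest in cluster 8 in wild type, *Ythdc2* in cluster 9 and *Rbm46* in cluster 11, and the *Meioc*-null symbols of *Meioc* in cluster 9, at 832 and 805 CPM, lie above both wild-type symbols.

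In somatic cells all 3 transcripts were low. In Sertoli cells, the supporting cells of the tubule, *Meioc* had 17.2 and 20.5 CPM in the wild-type libraries and 31.8 and 20.1 in the null libraries, and *Ythdc2* had 22.9 to 24.2 CPM in the 4 libraries. *Rbm46* had 18.9 to 23.4 CPM there. In peritubular myoid cells, which surround the tubule, *Meioc* had 4.83 to 11.8 CPM and *Ythdc2* 14.1 to 17.5 CPM, whereas *Rbm46* had 44.2 to 48.4 CPM in all 4 libraries. Interstitial fibroblast-like cells had 3.10 to 14.7 CPM of *Meioc*, 12.4 to 18.0 CPM of *Ythdc2* and 26.3 to 41.9 CPM of *Rbm46*. The *Meioc* level of wild-type clusters 1 to 3, 12.2 to 24.2 CPM, overlapped that of wild-type Sertoli cells. Clusters 1 and 3 lay above wild-type myoid cells (11.8 and 5.93 CPM) and fibroblast-like cells (11.97 and 13.3 CPM) without overlap. In myoid cells and in cluster 2, both replicate 1 libraries had more *Meioc* than both replicate 2 libraries, 11.8 and 9.43 against 5.93 and 4.83 CPM in myoid cells and 20.1 and 17.5 against 12.2 and 10.1 CPM in cluster 2. Cluster 3 had the same split, with 24.2 and 18.3 CPM in the replicate 1 libraries and 16.04 and 13.8 CPM in the others. The libraries thus split by batch in these cells, but not in cluster 1, Sertoli cells or fibroblast-like cells, whose levels were also low. Leydig-like cells numbered 21 to 72 per library and had 0 to 14.8 CPM of *Meioc* and 2.59 to 14.8 CPM of the other 2 transcripts. Droplet libraries carry free RNA from broken cells, and its part in these low values was not tested.

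Shares of cells with a UMI depend on depth, so each cell was thinned at random to 5000 UMIs and shallower cells were left out. At that depth *Meioc* was found in 6.79 and 6.98% of wild-type cells of cluster 1 (368 and 444 cells). The share was 27.1 and 32.6% in cluster 4, then 59.4 and 60.9% in cluster 5, then 83.6 and 81.2% in cluster 6, and reached 93.7 and 96.7% in cluster 8. At a mean of 0.351 and 0.425 *Meioc* UMIs per thinned cell in cluster 4, a cell with none cannot be read as lacking the transcript, and without thinning 75.3 and 74.8% of these cells had a UMI. *Ythdc2* was found in 12.8 and 15.3% of the cells of cluster 1, in 61.6 and 67.1% of those of cluster 8 and in 81.8 and 86.8% of those of cluster 9. *Rbm46* was found in 39.9 and 41.0% of the cells of cluster 1, in 68.2 and 72.1% of those of the next cluster and in 89.2 and 85.8% of those of cluster 11. The same thinning in cells outside the germ line gave the background. Of 91 to 136 Sertoli cells per library, 5.13 to 12.1% had *Meioc*, 6.59 to 14.1% had *Ythdc2* and 5.49 to 11.1% had *Rbm46*, and of 530 to 686 myoid cells 1.43 to 6.55%, 6.98 to 8.61% and 18.7 to 20.6% did. Before thinning, the Sertoli cells kept had medians of 21788 to 33230 UMIs, the myoid cells 8622.5 to 11543.5 and the cells of cluster 1 25376 to 30245. Thinning left out 175 to 307 Sertoli cells per library, since most were shallow. The shares of *Meioc* in clusters 1 and 2 of the 4 libraries, 4.89 to 6.98%, did not exceed the 7.35% of Sertoli cells of wild-type replicate 1 and are not read as expression. In cluster 3 the wild-type shares were 10.8 and 9.72%, above the 7.35 and 5.13% of Sertoli cells of the same libraries but not above the 11.1 and 12.1% of the null Sertoli cells, and the exact intervals of the cluster 3 shares (6.55 to 16.6% and 6.56 to 13.7%) hold 7.35%. The shares of *Ythdc2* in cluster 1 of the 4 libraries, 11.99 to 15.3%, overlapped those of Sertoli cells and lay above those of myoid cells. Within each library the share of cluster 1 was above that of Sertoli cells, but their exact intervals overlapped. In CPM, cluster 1 had 27.8 to 33.7 and Sertoli cells 22.9 to 24.2, without overlap. With so small a margin, the *Ythdc2* shares of cluster 1 are not read as expression. The share of *Rbm46* in cluster 1 lay above both somatic classes. Without thinning, *Meioc* was in 33.2 and 26.0% and *Rbm46* in 87.8 and 86.8% of wild-type cells of cluster 1, and in cluster 8 these shares were 99.5 and 99.1% for *Meioc* and 91.6 and 88.6% for *Rbm46*.

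**Figure D2:**
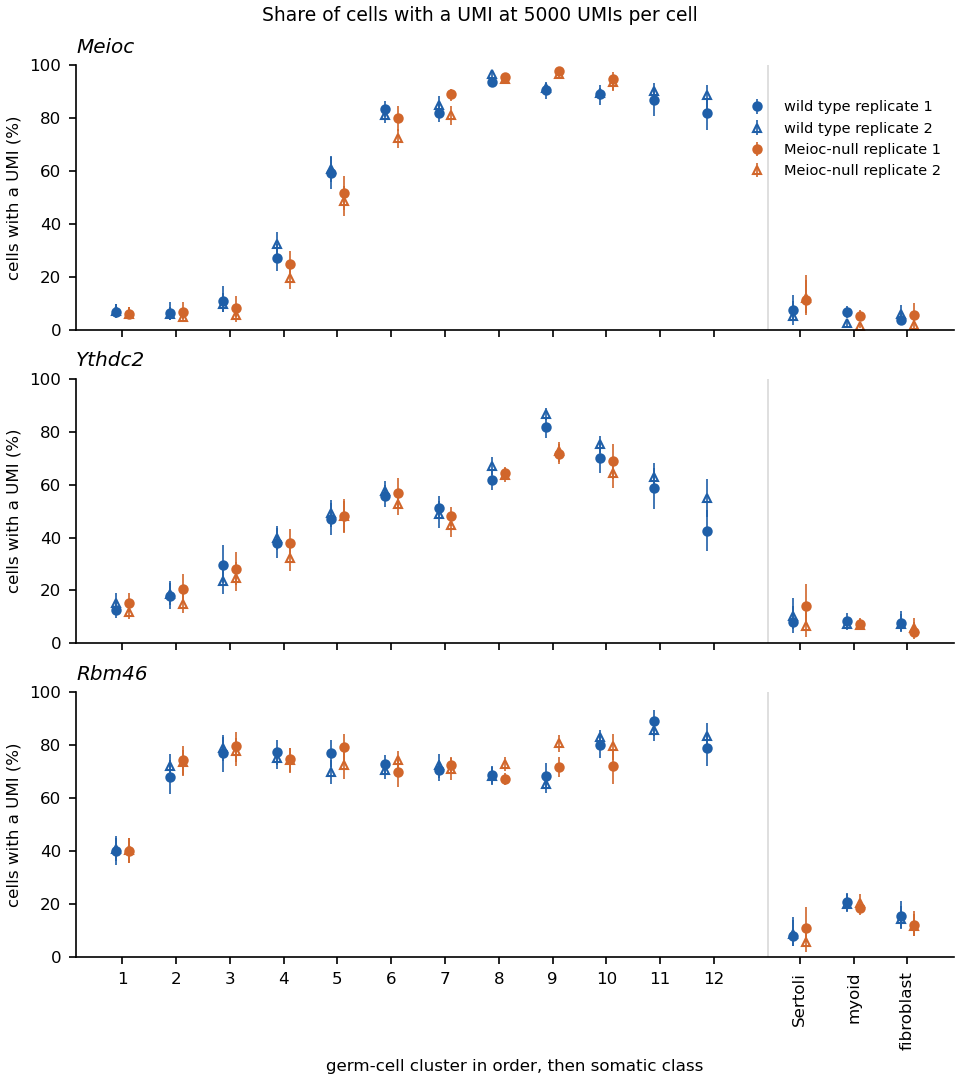
Share of cells with at least 1 UMI of each transcript (vertical axis, %) after thinning every cell to 5000 UMIs, by germ-cell cluster and somatic class (horizontal axis). Each symbol is 1 library with its 95% exact binomial interval; the share of cells with *Meioc* goes from 6.79 and 6.98% in wild-type cluster 1 to 93.7 and 96.7% in cluster 8, and that of *Rbm46* is 65.5% or more from cluster 2 on.

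Within a cluster, the spread of each transcript over cells was near or somewhat above that of random sampling of molecules. At 5000 UMIs, a wild-type cell of cluster 8 had a median of 3 *Meioc* UMIs in both libraries, with quartiles of 2 and 4 and of 2 and 5 and a maximum of 10 and 12. *Ythdc2* had a median of 1 in those cells and of 2 in cluster 9, and *Rbm46* had a median of 1 in both clusters. The ratio of the variance to the mean over cells, which is 1 for random sampling alone, ranged over all libraries and germ-cell clusters from 0.897 to 1.47 for *Meioc*, 0.908 to 1.24 for *Ythdc2* and 0.886 to 1.26 for *Rbm46*. For *Meioc* it was above 1 in every library of clusters 7 to 10, at 1.09 to 1.47. For *Ythdc2* it was above 1 in every library of clusters 8 to 12, at 1.09 to 1.24. No test against 1 was made.

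All 3 transcripts were found together in more than 1 in 2 cells of clusters 9 and 10 in wild type, where the share was close to what their single shares give by multiplication. In cluster 1 the cells with all 3 numbered 3 of 368 and 0 of 444 in wild-type replicates 1 and 2, and 0 of 444 allows a share of up to 0.676% (3 counts of the total; the exact binomial interval reaches 0.827%). Cluster 4 had 9.36 and 9.03% of such cells, cluster 6 had 35.3 and 34.7% and cluster 8 had 40.5 and 44.8%. The share was highest in clusters 9 and 10, at 53.0 and 52.4% and at 53.4 and 55.5%, and stood at 29.3 and 43.5% in cluster 12. The largest shares were thus those of the clusters with the most *Ythdc2*. In cluster 9 the product of the 3 single shares was 50.8 and 52.0%, next to the observed 53.0 and 52.4%. Among the 32 library and cluster values with 20 or more cells holding all 3, the observed share was 0.914 to 1.24 times the product. All 32 products lay inside the exact binomial interval of the observed share. These values come from clusters 4 to 12. The product comes from the same cells, so these intervals could hardly exclude it and do not test independence. The observed share was above the product in every library of clusters 5, 8, 9, 11 and 12, and the other clusters held both directions. In cluster 2, with 4 to 8 such cells per library, the observed share was 1.93 to 2.91 times the product in all 4 libraries, and in wild-type replicate 2 the product, 0.787%, lay below the interval of the observed 2.14% (0.930 to 4.18%). In cluster 4, *Ythdc2* was found in 44.4 and 41.2% of wild-type cells with *Meioc* and in 35.3 and 39.2% of those without. In cluster 8 the shares were 61.9 and 67.4% of the cells with *Meioc* and 56.2 and 60.0% of the 48 and 25 cells without it. Cluster 7 went the other way, with 51.0 and 48.7% of the wild-type cells with *Meioc* and 52.6 and 49.2% of those without. Of the 34 germ-cell cases with at least 20 cells of each kind, the share was higher in the cells with *Meioc* in 24 and lower in 10. Over the cells of a cluster in a library, Pearson's r between the UMIs of any 2 of the transcripts was -0.14 to 0.16 in the 112 cases with at least 20 cells with and 20 without the first of the pair, and in counts this sparse neither a relation nor its absence can be read from these values. Over all germ cells of a library, 30.0 and 32.9% of wild-type cells and 30.1 and 28.5% of *Meioc*-null cells had all 3, and 8.52, 7.56, 7.24 and 9.46% had none.

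**Figure D3:**
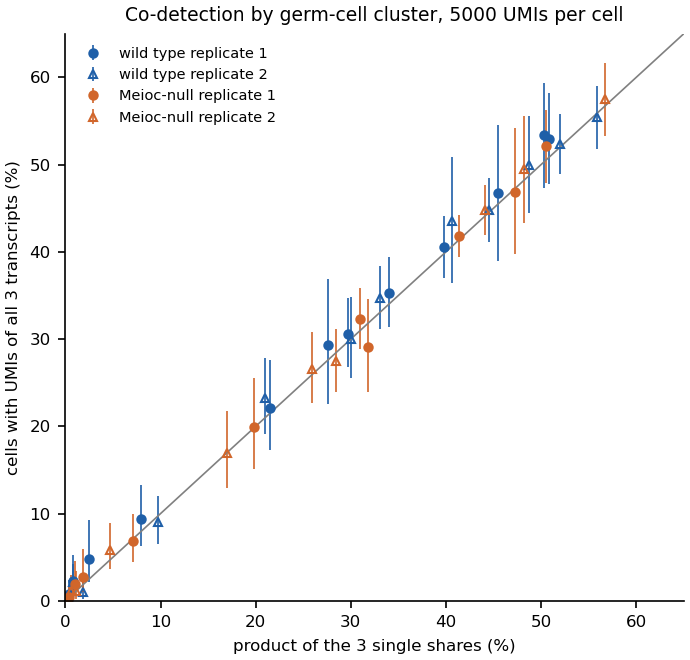
Share of cells with UMIs of all 3 transcripts (vertical axis, %, with 95% exact binomial interval) against the product of the 3 single shares (horizontal axis, %), for each library and germ-cell cluster at 5000 UMIs per cell. The line marks equality; the symbols lie along it from near 0 to about 57%, in both genotypes.

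Among 10589 other genes ranked over the 24 wild-type cluster and library values, the pattern of *Meioc* on the log2(CPM + 1) scale was nearest to that of *Tmx1* (r = 0.97), *Ergic3* (0.97), *Itch* (0.97), *Tsg101* (0.97) and *Cog7* (0.96). *Itch* encodes a ubiquitin ligase, *Tsg101* a subunit of an endosomal sorting complex and *Cog7* a subunit of a Golgi complex. Nearest to *Ythdc2* were *Copb1*, a coat protein of Golgi vesicles, *Carnmt1*, *Vps35*, a retromer subunit, *Spcs3* and *Fam13b*, with r between 0.97 and 0.98. *Rbm46* had looser neighbours, *Vrk2* (0.91), *Brd7* (0.90), *Srp9* (0.90), *Srsf1* (0.89) and *Thumpd1* (0.88), of which *Srsf1* encodes a splicing factor. *Meioc* and *Ythdc2* had r = 0.94 with each other, rank 32 among the neighbours of *Meioc*, whereas *Rbm46* had r = 0.45 with *Meioc* and 0.51 with *Ythdc2*. The 24 points share 2 libraries and 1 order of clusters, so these values describe likeness of pattern only. Over the 20 *Meioc*-null values of clusters 1 to 10 the r between *Meioc* and *Ythdc2* was 0.95, and that between *Rbm46* and *Srp9* was 0.43.

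The genotype comparison asked whether the 3 transcripts themselves differed without MEIOC. For *Meioc*, the null libraries count mRNA of the mutated gene itself, so its fold changes compare an intact with a mutated transcript. The effect of the deletion on the level of its own mRNA was not tested and cannot be told apart here from a response to lost MEIOC. Such a limit does not apply to *Ythdc2* and *Rbm46*. They differed in the early spermatocyte-like clusters 9 and 10, and not in 1 direction: *Meioc* was higher and *Ythdc2* lower in the null libraries of both clusters, and *Rbm46* was higher in cluster 9 and lower in cluster 10. UMIs summed per library and cluster were tested with edgeR's quasi-likelihood test in the 10 clusters with at least 50 cells per library. A call needed a Benjamini-Hochberg adjusted p under 0.05 over the genes of that cluster and a log2 fold change (wild type over *Meioc*-null) of more than 0.1 in size. Of 30 tests, 6 passed, all in clusters 9 and 10, where 46.7% and 61.9% of all genes tested passed in either direction. With the littermate pair as a block 9 passed, the added ones being *Meioc* in clusters 4, 5 and 6. In cluster 9, 21.8% of genes were called higher in wild type and 24.9% higher in the null, and in cluster 10, 30.7% and 31.2%. A call in these clusters is therefore shared with a large part of the transcriptome. Without the block, edgeR and DESeq2 each called 0 of 24 tests of these 3 genes in clusters 1 to 8. In 2 of the 24, *Meioc* in clusters 4 and 5, the unadjusted p was under 0.05. Over all genes, edgeR without the block gave 74 of 8228 unadjusted p-values under 0.05 in cluster 1 and 69 of 9011 in cluster 2. With the block these numbers were 430 and 480. A count of 0 without the block therefore does not show that nothing differed. Of all genes, none was called without the block in clusters 1, 2, 5 and 6 (0%). Cluster 3 had 0.0481% of genes called, cluster 4 had 0.0256%, cluster 7 had 1.4% and cluster 8 had 25.7%. With the block, 23, 28, 54 and 387 genes were called in clusters 1, 2, 5 and 6.

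In cluster 9, *Meioc* had 604 and 557 CPM in wild-type replicates 1 and 2 and 832 and 805 CPM in *Meioc*-null replicates 1 and 2. The log2 fold change was -0.46 ± 0.13 (SE, n = 2 per genotype, edgeR adjusted p = 0.00842). Pairs 1 and 2 gave log2 ratios of CPM of -0.46 and -0.53. In cluster 10 the values were 476 and 487 against 613 and 670 CPM (-0.37 ± 0.13, adjusted p = 0.0253; pairs -0.36 and -0.46). The null libraries were highest in cluster 9, whereas the wild-type libraries had their highest level in cluster 8, in which the genotypes overlapped at 628 and 683 against 672 and 648 CPM (0.04 ± 0.14). With 1 library left out, the fold changes kept their direction, but the call in cluster 9 was lost without wild-type replicate 1 (adjusted p = 0.0616) or 2 (0.126), and that in cluster 10 without wild-type replicate 1 (0.128), wild-type replicate 2 (0.0757) or *Meioc*-null replicate 2 (0.198).

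*Ythdc2* in cluster 9 had 368 and 401 CPM in the wild-type libraries, above the 286 and 308 CPM of the null libraries (0.41 ± 0.11, adjusted p = 0.00810; pairs 0.37 and 0.38). In cluster 10 it had 283 and 308 against 227 and 220.5 CPM (0.45 ± 0.11, adjusted p = 0.00146; pairs 0.32 and 0.48). The peak of *Ythdc2* in cluster 9 was thus present in both genotypes and lower in the null. The share of cells with *Ythdc2* at 5000 UMIs showed the same split in cluster 9, 81.8 and 86.8% against 71.8 and 72.6%. In clusters 1 to 8 its fold change was between -0.11 ± 0.13 and 0.20 ± 0.11. The call in cluster 9 was lost without wild-type replicate 2 (adjusted p = 0.111) or *Meioc*-null replicate 1 (0.0544), and that in cluster 10 passed with each library left out.

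*Rbm46* in cluster 9 had 238 and 225 CPM in the wild-type libraries, below the 286 and 311 CPM of the null libraries (-0.33 ± 0.11, adjusted p = 0.0198; pairs -0.26 and -0.47). In cluster 10 the direction was the opposite, 347 and 346 against 270.02 and 299 CPM (0.33 ± 0.11, adjusted p = 0.0191; pairs 0.36 and 0.21). From cluster 9 to cluster 10 *Rbm46* was 1.45-fold and 1.54-fold higher in the wild-type libraries, while both null libraries were slightly lower in cluster 10 than in cluster 9. The call in cluster 9 was lost without wild-type replicate 1 (adjusted p = 0.0619), wild-type replicate 2 (0.125) or *Meioc*-null replicate 2 (0.163), and that in cluster 10 without wild-type replicate 2 (0.112) or *Meioc*-null replicate 1 (0.198). In clusters 1 to 8 its fold change stayed between -0.07 ± 0.11 and 0.10 ± 0.12.

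*Meioc*-null cells placed in clusters 9 and 10 also differed from the wild-type cells there in stage markers. The preleptotene list holds *Stra8* and *Gm4969* (*Meiosin*). The study reported that MEIOC lowers *Stra8* and that the rise of *Meiosin* is delayed without it. Of all genes tested, 46.7% were called in cluster 9 and 61.9% in cluster 10. These sums therefore cannot tell stage apart from an effect of genotype on the listed genes. The summed level of the 5 preleptotene markers (among them *Stra8* and *Rec8*) in cluster 9 was 922 and 1045 CPM for the wild-type libraries but 2035 and 2322 CPM for the null ones, and that of the 7 differentiating spermatogonia markers was 350.0 and 297 against 533 and 523 CPM. The 8 early spermatocyte markers summed to 5115 and 4855 against 6093 and 5864 CPM there, and the 7 undifferentiated spermatogonia markers, at 15.2 and 11.9 against 8.47 and 4.50 CPM, were lower in the null. The 8 pachytene markers had 354 and 330.2 against 250.2 and 261 CPM. In cluster 10 the preleptotene list summed to 462 and 728 CPM for wild type and 1027 and 1172 CPM for the null, the differentiating list to 291 and 261 against 932 and 819.5 CPM and the early spermatocyte list to 4914 and 4431 against 6123 and 5508 CPM. The pachytene list there had 788 and 689 against 282 and 288 CPM, and the undifferentiated list 10.8 and 8.20 against 6.78 and 4.23 CPM. In both clusters, the differentiating, preleptotene and early spermatocyte lists were thus higher in the null cells, and the pachytene and undifferentiated lists were lower. The null cells of cluster 10 were also deeper, with medians of 13906 and 16551 UMIs against 11522 and 11176, as were those of cluster 9, with 10836 and 13241.5 against 10061 and 9631. The part of stage within a cluster and of depth in the fold changes of the 3 transcripts was not tested.

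Where *Meioc* first became abundant, its level in the null libraries was below that in wild type, a difference that was called in clusters 4 to 6 with the littermate pairs as a block, in cluster 4 without a filter on low counts, and in no other setting tried. Its 80.7 and 80.3 CPM in wild-type cluster 4 stood above 56.6 and 49.2 CPM in the null. Cluster 5 had 196 and 198 against 161 and 152 CPM, and cluster 6 had 397 and 390.2 against 365 and 316 CPM. As in 15 of the 30 comparisons of the 3 genes, the genotypes did not overlap in any of these 3 clusters. *Rbm46* in cluster 3 also had no overlap, at pair ratios of only 0.02 and 0.07. With 2 libraries per genotype, lack of overlap is therefore not read as a difference. The share of all genes without overlap was not counted. The fold changes of *Meioc* were 0.63 ± 0.11, 0.36 ± 0.11 and 0.24 ± 0.12, with edgeR adjusted p-values of 0.139, 0.999 and 0.991, so none passed. With the littermate pair as a block, all 3 passed, with adjusted p-values of 3.37e-08, 0.000500 and 0.0489, in fits where 0.653%, 0.392% and 2.05% of genes were called higher in wild type. Log2 ratios within pairs 1 and 2 were 0.51 and 0.71, 0.29 and 0.37, and 0.12 and 0.30. In cluster 4, the call also passed without a filter on low counts (adjusted p = 0.000433, with 0.283% of genes called higher in wild type). The 8 early spermatocyte markers also summed lower in the null library of both pairs. For pairs 1 and 2, wild type against null, they had 379 against 334 and 316 against 283 CPM in cluster 4, 540.4 against 439 and 442 against 412 CPM in cluster 5, and 1009 against 860 and 769 against 698 CPM in cluster 6, and the part of these markers in the *Meioc* difference was not tested. The marker list was lower in the null library of both pairs of cluster 7 as well (1803 against 1392 and 1541 against 1285 CPM). Outside the germ line, myoid cells (130 against 97.9 and 74.6 against 55.7 CPM) and fibroblast-like cells (128 against 90.6 and 90.5 against 34.9 CPM) had the same direction. So did Leydig-like cells (137 against 59.5 and 136 against 28.4 CPM), whereas Sertoli cells had the opposite one (183 against 231 and 215 against 245 CPM). In the germ line the list was also lower in both pairs of cluster 2 (321 against 285 and 244 against 232 CPM) and cluster 3 (333 against 276 and 251 against 241 CPM). The *Meioc* ratios of pairs 1 and 2 there were 0.20 and 0.27 and then 0.40 and 0.22, at few UMIs. In clusters 7 and 8 the *Meioc* ratios of the pairs had opposite signs. The difference against cluster 1 was not called for cluster 4 (0.62 ± 0.26, adjusted p = 0.896, with 0.0255% of genes called).

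**Figure D4:**
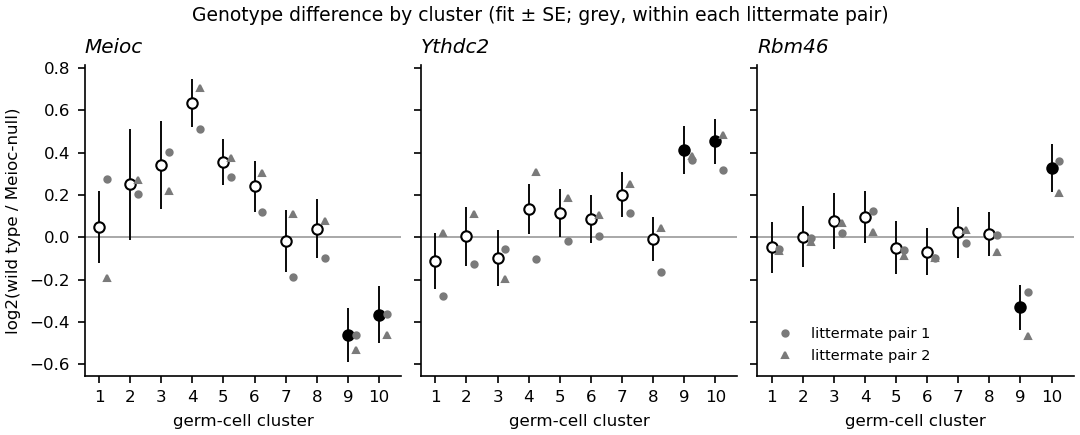
Log2 fold change of wild type over *Meioc*-null (vertical axis) by germ-cell cluster 1 to 10 (horizontal axis) for each transcript. Black circles with bars are the edgeR estimate ± SE over 2 libraries per genotype, filled where called; grey symbols are the CPM ratios within littermate pairs. *Meioc* goes from 0.63 in cluster 4 to -0.46 in cluster 9, *Ythdc2* reaches 0.41 and 0.45 in clusters 9 and 10, and *Rbm46* goes from -0.33 to 0.33 between clusters 9 and 10.

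Whether the genotype difference itself changed along the order was tested with cluster by genotype terms in edgeR, with each mouse as a block, over 15664 genes. Against cluster 1, *Ythdc2* differed more in cluster 9 (0.58 ± 0.13, adjusted p = 0.000244) and in cluster 10 (0.65 ± 0.13, adjusted p = 4.99e-05), and *Rbm46* in cluster 9 (-0.23 ± 0.09, adjusted p = 0.0330) and cluster 10 (0.46 ± 0.09, adjusted p = 1.81e-05). In cluster 1, the reference, the *Ythdc2* level was little above that of Sertoli cells, and its pair ratios were -0.28 and 0.02. *Meioc*, at few UMIs in cluster 1, had wide errors, -0.45 ± 0.24 in cluster 9 (adjusted p = 0.187) and -0.33 ± 0.24 in cluster 10 (0.330), and was not called. In all, 4 of 27 terms passed, and 28.4% and 37.6% of all genes passed for clusters 9 and 10 and 13.6% for cluster 8. In a comparison of each cluster with the one before it, chosen after the data were seen, the genotype difference of *Meioc* (-0.44 ± 0.14, adjusted p = 0.0249), *Ythdc2* (0.48 ± 0.09, 7.02e-05) and *Rbm46* (-0.29 ± 0.08, 0.00494) all differed between clusters 8 and 9, where 23% of genes did. Between clusters 9 and 10 only *Rbm46* of the 3 did (0.69 ± 0.09, adjusted p = 3.66e-09), among 24.5% of genes. The *Rbm46* term in cluster 9 against cluster 1 was lost without wild-type replicate 2 (adjusted p = 0.423), *Meioc*-null replicate 1 (0.0680) or *Meioc*-null replicate 2 (0.151), and the step of *Meioc* between clusters 8 and 9 without wild-type replicate 2 (0.108) or *Meioc*-null replicate 1 (0.101). The step of *Rbm46* between clusters 8 and 9 was lost without wild-type replicate 2 (0.168) or *Meioc*-null replicate 2 (0.0829).

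In somatic cells only *Rbm46* passed the detection filter, in fibroblast-like and myoid cells, and neither test was called by edgeR or DESeq2. Fibroblast-like cells of wild type had 35.4 and 41.9 CPM and those of the null 28.9 and 26.3 CPM (0.52 ± 0.22, edgeR adjusted p = 0.999, the only one of the 2 with an unadjusted p under 0.05), among 0.0227% of genes called. *Rbm46* reached the 25% of cells asked for only through the wild type there (27.6 and 24.7% of cells against 18.1 and 18.8%), so the filter favoured this direction. Myoid cells had 46.9 and 44.8 against 44.2 and 48.4 CPM, a difference of 0.02 ± 0.17, where 0.0762% of genes were called.

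mRNAs are taken down by enzymes with which such complexes work, and 4 lists of their genes were read in the same fits. The lists hold 11 genes of the CCR4-NOT deadenylase, which shortens poly(A) tails, 10 of nonsense-mediated decay, 9 of decapping and 5′-to-3′ decay, and 14 relatives of YTHDC2 and RBM46. In clusters 1 to 7 edgeR and DESeq2 called 0 of 275 tests of these genes, 4 of which had an unadjusted p under 0.05. Of all genes, edgeR called 0 to 1.4% in these clusters. In cluster 8 edgeR called 4 of 11 CCR4-NOT genes, 0 of 9 nonsense-mediated decay genes, 2 of 7 decapping genes and 2 of 10 relatives, at a background of 25.7%. These 8 of 37 calls were 3 with DESeq2, at 20.5% of all genes. With any 1 library left out, fewer of the lists and fewer of all genes were called. In cluster 10, 7 of 11, 7 of 10, 3 of 7 and 6 of 10 were called, at a background of 61.9%, so these shares are near that of all genes. With the littermate pair as a block, *Patl1* (-0.31 ± 0.10, edgeR adjusted p = 0.0441) and *Syncrip* (-0.24 ± 0.08, 0.0475) were also called in cluster 6 and *Syncrip* (-0.35 ± 0.10, 0.0121) in cluster 7, where 5.5% and 7.74% of all genes were called. The block raised the calls of the 4 lists together from 8 to 12 in cluster 8 and from 12 to 21 of 36 in cluster 9, at 44.6% and 60.5% of all genes. In cluster 10 it raised them from 23 to 28 of 38, at 70.9% of all genes.

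CCR4-NOT genes were called in both directions in cluster 10, 5 higher in wild type and 2 higher in the null, with a list median of 0.20 beside -0.0033 over all genes tested. Of all genes there, 30.7% were called higher in wild type and 31.2% higher in the null. The scaffold *Cnot1* had 269 and 264 CPM against 206 and 200.2 CPM in the null (0.44 ± 0.10, adjusted p = 0.000887), and *Cnot11* differed by 0.57 ± 0.13. *Cnot6l*, a catalytic subunit, and *Cnot9* went the other way, at -0.39 ± 0.10 and -0.46 ± 0.13. Of the nonsense-mediated decay genes, 5 of 10 were higher in wild type and 2 in the null, with a median of 0.33, beside the same 30.7% and 31.2%. The kinase *Smg1* (0.86 ± 0.10), its regulator *Smg9* (1.77 ± 0.22) and the helicase *Upf1* (0.72 ± 0.11) were higher in wild type, and *Upf3a* was higher in the null (-1.28 ± 0.11, with 52.6 and 56.4 against 135 and 142 CPM).

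In cluster 9, at a background of 46.7%, 4 of 11 CCR4-NOT genes, 2 of 8 nonsense-mediated decay genes, 4 of 7 decapping genes and 2 of 10 relatives were called. The decapping genes split into 2 in each direction (all genes 21.8% higher in wild type and 24.9% in the null), with a median of -0.33 beside -0.0042 over all genes. *Lsm1* (-0.65 ± 0.11) and the helicase *Ddx6* (-0.43 ± 0.10) were higher in the null, and *Edc4* (0.52 ± 0.13) and the decapping enzyme *Dcp2* (0.49 ± 0.15) in wild type. Among the relatives in cluster 10, 3 of 10 were higher in each genotype, with a median of -0.03, again beside 30.7% and 31.2% of all genes. The YTH-domain reader *Ythdf2* (0.57 ± 0.09) and the helicase *Dhx30* (0.50 ± 0.10) were higher in wild type. The helicase *Dhx29* (37.8 and 36.7 against 88.1 and 94.6 CPM, -1.25 ± 0.12) and *Syncrip* (-0.76 ± 0.11) were higher in the null. The reads of *Syncrip* may be shared with its near relative *Hnrnpr*.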

How the data were processed

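Per the labels and the study's methods, 1 testis per pup was dissociated, the interstitium was largely discarded, and the authors counted UMIs of 10x Genomics Chromium 3′ libraries with Cell Ranger 4.0.0 on mm10 (GRCm38). They deposited raw UMI counts per gene and barcode without normalization. Genotype, replicate and batch came from the labels. The labels name replicate pairs as littermates sequenced together, and deviations from the genotype means of same-numbered libraries correlated at 0.19 to 0.66 across the 13 tested cell groups, so the numbers pair the samples.

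The study's barcode limits were kept. Doublets were scored with Scrublet in scanpy 1.11.5, and the highest scores were removed at 0.8% per 1000 barcodes (690, 989, 996 and 692 barcodes). Wild-type cells were clustered on 2000 variable genes without the 3 genes or the decay lists (30 components, Leiden, germ-cell resolution 0.3). Every cell took the majority cluster of its 30 nearest wild-type cells. Clusters were named from marker lists, taking markers among the 10 leading genes first, a rule set after the clusters were seen. A low-depth group led by *Crabp1* and a small group led by *S100a4* and *Cd52* were left out (together 128 to 296 cells per library). Cell classes with fewer than 50 cells in a library were left out of tests.

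UMIs summed per library and cluster (103770993, 129313522, 97377638 and 121019497 in cells of the 4 libraries) were tested with edgeR 4.0.16 (TMM, robust quasi-likelihood, genotype only) for genes detected in 25% or more of the cells of 1 genotype. DESeq2 1.42.0, other filters, the replicate block, leaving out each library, other cell filters and placings were alternatives. On simulated counts of cluster 8 (6013 genes, 200 changed 2-fold), 99.5% were recovered with 8 false calls. The simulated libraries had no littermate effect, and fewer genes changed, by more, than was found for the 3 genes and their clusters. The simulation therefore does not measure the power or error of the calls made here. Intervals are 95% and cover counting error only. Named genes were the 3 genes, the 5 nearest to each in pattern, and up to 4 of each decay list with the lowest adjusted p in the cluster where most of the list passed. The 3 genes and the lists were chosen with earlier results of these data known.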

Additional observations from a re-analysis of the deposited data

Results flagged for a closer look

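The genotype differences of 8 values were picked out because a test of the difference between clusters passed in edgeR. Against cluster 1, 28.4% of all genes passed in cluster 9 and 37.6% in cluster 10. The steps between neighbouring clusters were chosen after the data were seen. There 23% of genes passed from cluster 8 to 9 and 24.5% from cluster 9 to 10. In cluster 1 the *Ythdc2* level was little above that of Sertoli cells. On the log2 scale (wild type over *Meioc*-null), the difference of *Ythdc2* was higher than in cluster 1 by 0.58 in cluster 9 and by 0.65 in cluster 10. That of *Rbm46* changed against cluster 1 by -0.23 in cluster 9 and by 0.46 in cluster 10. From cluster 8 to cluster 9 the difference changed by -0.44 for *Meioc*, 0.48 for *Ythdc2* and -0.29 for *Rbm46*. From cluster 9 to cluster 10 it changed by 0.69 for *Rbm46*, the only reversal of direction between neighbouring called values. With 2 libraries per genotype, no test for a single library standing apart in a group was made.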

How the results depend on the processing

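Of the 30 tests of the 3 genes in germ-cell clusters, 6 were called, and 6 were also called with DESeq2's size factors in edgeR, with DESeq2's Wald test, without doublet removal, with 10 nearest cells, with placing that left out genes differing between genotypes and with the coarser clustering. filterByExpr gave 5 calls (*Rbm46* in cluster 9 not called) and no filter on low counts gave 4 (*Rbm46* in clusters 9 and 10 and *Meioc* in cluster 10 not called, *Meioc* in cluster 4 called). The replicate block of littermate pairs gave 9 calls, adding *Meioc* in clusters 4, 5 and 6 (log2 fold changes of 0.63, 0.36 and 0.24), and changed no other call of these genes. Leaving out 1 library gave 1 to 4 calls, of which the lowest was without wild-type replicate 2; the lone sample of a genotype is then assumed to vary like the others. No fold change of a called value reversed under any of these settings. Of the 27 cluster by genotype terms, 4 were called, 3 with DESeq2's size factors (*Rbm46* in cluster 9 was then not called) and 3 to 4 with 1 library left out. A limit of 5% mitochondrial UMIs left fewer than 50 cells in some library of every germ-cell cluster, so those tests could not be made.

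The block raised the number of all genes called from 0 to 23 in cluster 1, 0 to 28 in cluster 2, 4 to 35 in cluster 3, 2 to 90 in cluster 4, 0 to 54 in cluster 5, 0 to 387 in cluster 6, 84 to 465 in cluster 7, 1545 to 2680 in cluster 8, 2723 to 3528 in cluster 9, 4090 to 4682 in cluster 10 and 1 to 14 in fibroblast-like cells, with 10 in Sertoli cells and 4 in myoid cells under both fits. Depth limits detection: the share of wild-type cells of cluster 9 with all 3 transcripts was 52.7% at 5000 UMIs, 17.6% at 2500 UMIs and 83.4% without thinning, while its ratio to the product of the single shares was 1.03, 1.00 and 1.02. Highest levels moved by less than 1 SD with means over cells or with doublets kept. The decay lists had 23 calls of 38 tested in cluster 10 (60.5%, and 61.9% of all genes) and 28 of 38 with the replicate block (73.7%, and 70.9% of all genes). The other settings with all 4 libraries gave 17 to 23 calls, where 38 to 44 were tested and 29.5 to 66.5% of all genes were called. In cluster 8 their 8 calls of 37 stood beside 25.7% of all genes. They were 12 with the block (44.6% of all genes), 3 with DESeq2 (20.5%) and 4 of 42 with filterByExpr (14.4%). With any 1 library left out, fewer of the lists and fewer of all genes were called.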
